A study of Bos taurus with 12 samples.

Results

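The genes described here carry long-chain fatty acids into the heart muscle cell and break them down in the mitochondrion by beta-oxidation. They are a list of 35 genes given by symbol. The rule itself uses no measured value, but the list was chosen with earlier results of these data known. It holds transporters and binding proteins, the carnitine shuttle, the enzymes of the beta-oxidation spiral and the flavoproteins that pass its electrons on. Proteins of the lipid droplet, of malonyl-CoA and of mitochondrial uncoupling complete it. Of the 35, 31 were found by symbol among the 24616 genes of the table, none of them in more than 1 row. ECI2 and ACOT13 stood under the older symbols PECI and THEM2, are described below by their current names, and are left out of the counts over the 31 genes. CRAT and LIPE are not analysed here.

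The data are RNA-seq of the right ventricle of 12 Angus steers labelled wild type. All 12 were males, castrated as calves, raised on forage with a grain supplement at 2170 m (7120 ft) and slaughtered between 13 and 15 months of age, so that chronic low oxygen is shared by every group, controls included. Right heart catheterization and clinical signs divided them into 6 steers with low pulmonary artery pressure (low PAP, labelled hypoxia-tolerant), 3 with pulmonary hypertension that were clinically healthy (PH-healthy) and 3 with pulmonary hypertension and right heart failure (PH-failure). The classes arose in the field and were not assigned. Each library is a separate animal.

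Fatty acids are the main fuel of the adult heart. They enter through CD36 and are bound in the cytosol by FABP3, activated to acyl-CoA, and carried across the inner mitochondrial membrane as carnitine esters. Each turn of the spiral then removes an acetyl unit through dehydrogenation, hydration, a second dehydrogenation and thiolysis, and hands electrons to NADH and to the electron-transferring flavoprotein. Malonyl-CoA blocks the entry step at CPT1, which makes its synthesis and removal a control point.

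Values are RPKM, reads scaled to the length of a gene's exons and to the mapped reads of its library, so levels of different genes may be set beside each other. The libraries held 14739237 to 31090198 mapped reads, lowest in PH-failure replicate 1. Fold changes are differences of log2(RPKM + 1) from 1 limma model of the 3 groups, which understates the change of genes near 1 RPKM. A gene is called when its Benjamini-Hochberg adjusted p over the 11374 genes tested is under 0.05; all 31 genes passed the filter on low values. The tissue was sampled in bulk, where fewer cells of a type and less RNA per cell cannot be told apart. In PH-failure the median tested gene lay 0.21 above low PAP on the log2 scale, and in PH-healthy 0.175 above it, so that a gene at a log2 fold change of 0 was lower than the median gene. The mitochondrial genome took 24.6 ± 2.67% of exon reads at low PAP (SD, n = 6), 19.8 ± 1.27% in PH-healthy and 19.4 ± 1.34% in PH-failure (SD, n = 3 each), and with its reads left out of the scaling the medians were 0.13 and 0.10.

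PH-failure replicate 3 stood apart. Its Spearman correlation with the other libraries had a median of 0.931, against 0.950 to 0.959 for the other 11. The 8 adipocyte markers found, of 10 listed, summed to 1054 RPKM there, against 19.8 to 265 in the low-PAP libraries, 10.9 to 16.8 in PH-healthy and 25.6 and 189 in the other PH-failure libraries. FABP4, the fatty acid binding protein of fat cells, gave 949 RPKM of that sum. The other 7 adipocyte markers summed to 105 RPKM there, close to 91.8 in low-PAP replicate 5 and 83.1 in PH-failure replicate 1, and to between 8.77 and 29.1 in the other 9 libraries. The 14 heart muscle markers were all present in every library and summed to 57439 RPKM in that library and to between 84146 and 108400 in the other 11. Fold changes in PH-failure, and the counts of calls in the fatty acid lists there, are given with and without it. Low-PAP replicate 1 was the lowest of its group for the pathway as a whole: all 31 genes were below the low-PAP mean there, with a median of -0.30 on the log2 scale.

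Genes of the list fell, and none rose, in both groups of steers with pulmonary hypertension. Of the 4 uptake and binding genes, FABP3 alone fell in PH-failure and 0 fell in PH-healthy. Against low PAP, 8 of the 31 genes (25.8%) fell in PH-failure, where 5.79% of all tested genes fell and 28% rose (33.8% in either direction). In PH-healthy 13 of 31 (41.9%) fell, against a background of 8.15% lower and 26.6% higher (34.7% in either direction). With both hypertensive groups as 1, 13 of 31 fell, against 10.4% of all genes lower and 37.3% higher (47.7% in either direction). The median log2 fold change of the 31 genes was -0.28 in PH-failure and -0.41 in PH-healthy, and 28 of 31 lay below the median gene in each; without PH-failure replicate 3 the median in PH-failure was -0.22. The 2 groups are set against the same 6 low-PAP libraries, so their values are not independent of each other. The genes that fell in both were HADHB, HADH, ECHS1, DECR1, ETFA, PLIN5 and UCP3. FABP3 passed the test in PH-failure but not in PH-healthy, and SLC25A20, HADHA, ACAA2, ECI1, ETFB and UCP2 in PH-healthy but not in PH-failure. On scaling to the median gene SLC25A20, HADHA, ACAA2, ECI1 and ETFB passed in PH-failure too. The difference between the hypertensive groups was tested directly and is given below; none of these genes passed it.

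**Figure D1:**
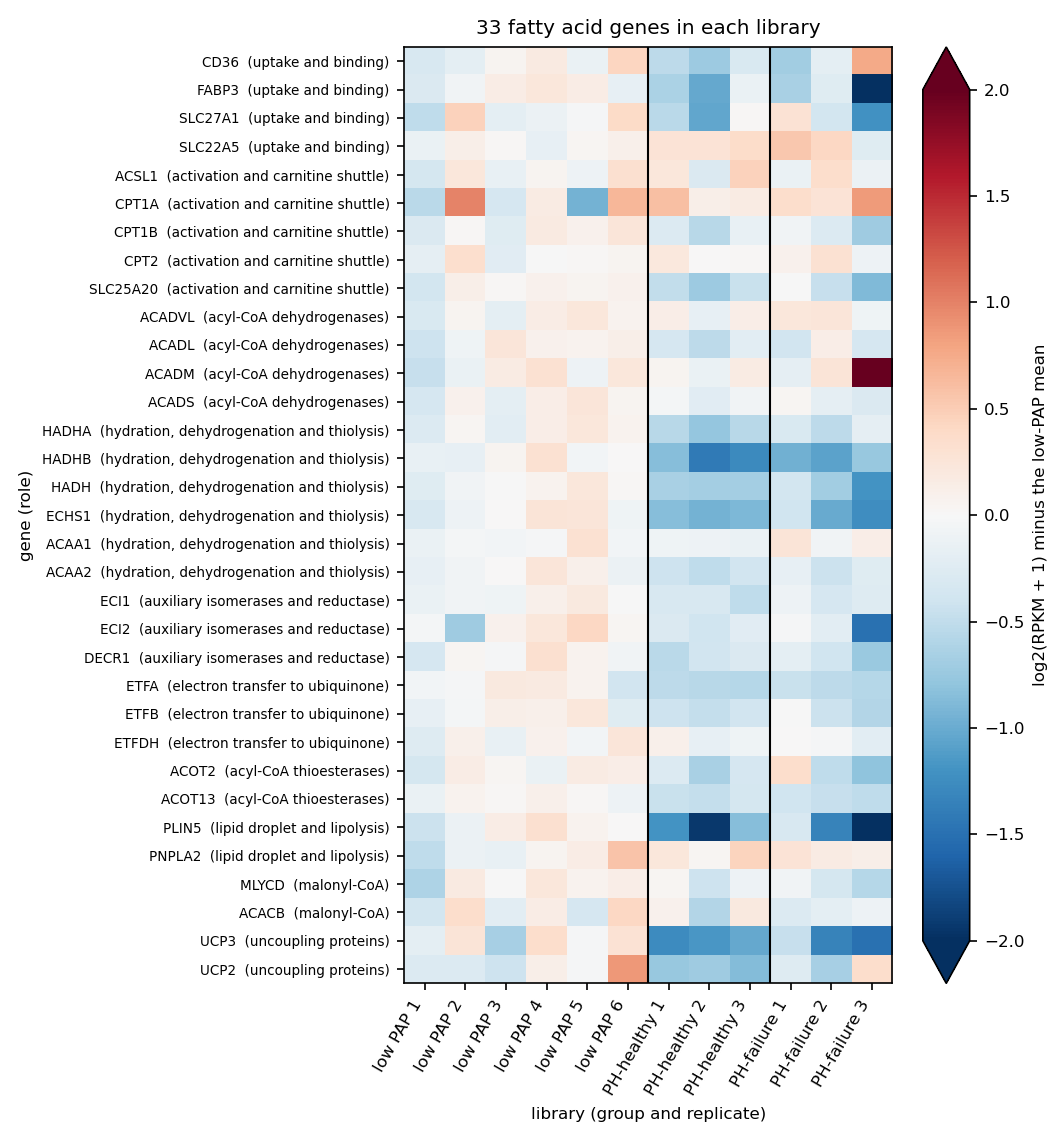
Level of 33 fatty acid genes (rows, ordered by role) in each of the 12 libraries (columns), as log2(RPKM + 1) minus the mean of the 6 low-PAP libraries, blue below and red above that mean. HADHB, HADH, ECHS1, ETFA, PLIN5 and UCP3 are blue in all 6 hypertensive libraries, and ACADM is reddest in PH-failure replicate 3, at 1187 RPKM.

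Setting aside PH-failure replicate 3 left 5 genes lower in PH-failure (HADHB, HADH, ECHS1, ETFA and UCP3) and 1 higher, the carnitine transporter SLC22A5, with a log2 fold change of 0.48 and a limma adjusted p of 0.0265. In that fit 2.28% of all tested genes were lower and 11.3% higher. Without low-PAP replicate 1 the count of lower genes in PH-failure was 11, against 4.83% of all genes lower. Without PH-failure replicate 1 it was 12, against 8.24%. In PH-healthy the count was 7 without PH-healthy replicate 2 and 8 without replicate 3, against 4.97% and 3.62% of all genes lower. Scaling the libraries to the median gene gave 17 lower genes in PH-failure and 18 in PH-healthy, with 0 higher in either, while the share of all genes called lower went to 15.7% and 17.3%. The same comparison by limma-voom on recovered reads gave 15 and 17, again with 0 higher, against 13.8% and 14.7% of all genes lower. Among all genes that scaling matters more: 82.9% of the calls in PH-failure and 76.5% of those in PH-healthy were higher, but 44.4% and 46.7% after quantile normalization, under which 10 and 13 of the 31 fatty acid genes fell and 0 rose, against 12.5% and 14.3% of all genes lower.

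The library labels fall into a series numbered 55 and a series numbered 56, each with low-PAP, PH-healthy and PH-failure libraries, 6 in all per series. Every gene called lower in PH-failure (8 of 8) and in PH-healthy (13 of 13) had a lower mean than low PAP within each series. Both series had entered the fits that picked out these falls, which made a shared direction likely beforehand. The counts stand without a share for all called genes and do not test whether the falls depend on series. Series 55 holds 1 PH-failure library, replicate 3, and series 56 holds 1 PH-healthy library, replicate 1, so those within-series values rest on 1 library against 3.

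Summed over the 31 genes, the pathway gave 5419 ± 590 RPKM at low PAP (SD, n = 6), 3911 ± 625 in PH-healthy and 4261 ± 157 in PH-failure (SD, n = 3 each). FABP3 alone made up 2005 ± 278 RPKM of the low-PAP sum. The median of the 31 genes relative to low PAP was -0.33, -0.52 and -0.21 in PH-healthy replicates 1 to 3 and -0.13, -0.34 and -0.30 in PH-failure replicates 1 to 3, on the log2 scale. In the same 6 libraries the median of all tested genes was between 0.13 and 0.25 above the low-PAP mean. By the median of the 31 genes, PH-failure replicate 1 was the hypertensive library nearest to low PAP, and PH-healthy replicate 2 the farthest. By their summed RPKM the nearest was PH-healthy replicate 3, at 4523, against 4112 in PH-failure replicate 1. PH-healthy replicate 2 was the farthest by that measure too, at 3274 RPKM.

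Among uptake and binding genes, FABP3, the cytosolic fatty acid binding protein of heart and the most abundant gene of the list, ranged from 1627 to 2317 RPKM at low PAP with a median of 2047. It stood at 1267, 1677 and 478 RPKM in PH-failure replicates 1 to 3 and at 1277, 980 and 1805 in PH-healthy replicates 1 to 3. The groups overlapped, and 478 RPKM in PH-failure replicate 3 was the lowest of all 12 libraries. FABP3 fell in PH-failure with a log2 fold change of -0.98 ± 0.32 (SE; limma adjusted p = 0.0323). Without replicate 3 the fold change was -0.45 (adjusted p = 0.157), so that call rests on that library; it was also lost after quantile normalization and without low-PAP replicate 3, 4 or 5 (adjusted p of 0.0559 or more). In PH-healthy the change was -0.60 ± 0.32 (adjusted p = 0.154), and it passed in the fit without PH-failure replicate 3, whose spread all groups share (adjusted p = 0.0252).

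CD36, the main fatty acid translocase of the sarcolemma, is also expressed by fat cells, macrophages and capillary endothelium. Its level was 329 to 555 RPKM at low PAP (median 401), 288, 250 and 334 in PH-healthy, and 253, 362 and 702 in PH-failure. Only PH-failure replicate 3 exceeded every low-PAP library. Its adipocyte sum was the highest, mostly through FABP4. The other 7 adipocyte markers summed to 105 RPKM there, and to 91.8 in low-PAP replicate 5 and 83.1 in PH-failure replicate 1, where CD36 was 376 and 253 RPKM. The part of fat cells in the CD36 level was not tested. Neither comparison passed the test, with log2 fold changes of -0.51 ± 0.26 in PH-healthy and -0.04 ± 0.26 in PH-failure, the latter -0.45 without replicate 3. The PH-healthy change passed in that fit (adjusted p = 0.0358), on scaling to the median gene and with limma-voom. SLC27A1, a fatty acid transport protein, averaged 35.2 ± 9.20 RPKM at low PAP, 24.8 ± 9.40 in PH-healthy and 27.6 ± 14.0 in PH-failure, and passed neither test. SLC22A5, which imports carnitine, had 3.13 to 4.03 RPKM at low PAP and 4.57, 4.56 and 4.95 in PH-healthy, with no overlap (25% of all genes were higher without overlap in that comparison, and 18.6% in PH-failure). In PH-failure it stood at 5.71, 5.17 and 2.90 RPKM, and neither change passed the test with all libraries; without replicate 3 both did (PH-healthy 0.30, adjusted p = 0.0364).

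Of the carnitine shuttle and its activating enzyme, 5 genes in the counts, 0 fell in PH-failure and 1 in PH-healthy, against 5.79% and 8.15% of all tested genes. SLC25A20, the carrier that exchanges acylcarnitine for carnitine across the inner membrane, ranged from 27.1 to 38.2 RPKM at low PAP (median 36.9). It gave 24.6, 20.9 and 25.4 RPKM in PH-healthy replicates 1 to 3, all under the lowest low-PAP library, and 34.9, 25.3 and 18.7 in PH-failure. The fall in PH-healthy was -0.56 ± 0.17 on the log2 scale (limma adjusted p = 0.0243). In PH-failure the estimate was -0.45 ± 0.17 (adjusted p = 0.0549), and replicate 1 there was at the low-PAP level. The call in PH-healthy was lost without any 1 of its 3 libraries (adjusted p of 0.0514 to 0.0993), and SLC25A20 passed in PH-failure on leaving out replicate 1 of PH-failure or of low PAP (0.00826 to 0.0348). Without PH-failure replicate 3 the estimate there was -0.23 (adjusted p = 0.289). The change in PH-failure also passed after quantile normalization, scaling to the median gene, scaling without the mitochondrial genome, and with limma-voom.

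The enzymes on either side of that carrier did not pass the test in any comparison of the main fit. On scaling to the median gene and with limma-voom, CPT1B passed in each comparison with low PAP. CPT1B, the muscle form of carnitine palmitoyltransferase 1 and the site of malonyl-CoA inhibition, ranged from 67.5 to 98.2 RPKM at low PAP with a median of 86.3. It gave 68.5, 55.9 and 74.3 RPKM in PH-healthy and 79.3, 68.3 and 50.5 in PH-failure, with log2 fold changes of -0.33 ± 0.16 and -0.35 ± 0.16, the latter -0.49 and past the threshold without PH-failure replicate 1 (adjusted p = 0.0474), but -0.17 without replicate 3 (adjusted p = 0.461). CPT1A, the form that dominates in liver, ranged from 2.38 to 11.99 RPKM at low PAP (median 5.27), gave 8.91, 6.07 and 6.35 in PH-healthy and 7.35, 6.92 and 10.8 in PH-failure, and overlapped between all groups. CPT2, which turns acylcarnitine back into acyl-CoA inside the mitochondrion, averaged 32.9 ± 4.95 RPKM at low PAP, 34.7 ± 2.98 in PH-healthy and 35.2 ± 5.29 in PH-failure. ACSL1, the main long-chain acyl-CoA synthetase of the heart, averaged 125 ± 22.0, 139 ± 35.5 and 128 ± 25.3 RPKM in the same order.

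The first dehydrogenation of the spiral held 4 genes, of which none was called in any comparison of the main fit. ACADVL, which starts on the longest chains, ranged from 202 to 293 RPKM at low PAP (median 259), and gave 274, 223 and 275 in PH-healthy and 291, 294 and 236 in PH-failure. Its 95% interval on the log2 scale was -0.18 to 0.43 in PH-failure, where the estimate was 0.13 and 0.23 without replicate 3, and -0.27 to 0.34 in PH-healthy. ACADL, the long-chain enzyme, was far less abundant, at 12.1 to 19.7 RPKM at low PAP (median 17.5), 12.9, 11.3 and 14.2 in PH-healthy and 12.4, 18.1 and 12.9 in PH-failure. Its log2 fold change in PH-healthy was -0.35 ± 0.16 (limma adjusted p = 0.0940), and -0.43 without low-PAP replicate 1 (adjusted p = 0.0359). ACADL also passed in PH-healthy after quantile normalization, scaling to the median gene, scaling without the mitochondrial genome, and with limma-voom. ACADS, for short chains, averaged 75.1 ± 11.1 RPKM at low PAP and 69.1 ± 4.74 and 67.6 ± 8.26 in PH-healthy and PH-failure. In PH-failure it was called lower on scaling to the median gene alone (limma adjusted p = 0.0418). ACADM, for medium chains, was at 216 to 371 RPKM at low PAP (median 307), 312, 273 and 337 in PH-healthy and 264 and 357 in PH-failure replicates 1 and 2, but at 1187 RPKM in replicate 3. Its log2 fold change in PH-failure was 0.69 ± 0.36 with that library and 0.04 without it, and passed the test in neither fit; without replicate 1 it was 1.12 (adjusted p = 0.0255).

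Of the 6 genes for the steps from the enoyl-CoA to the thiolysis, 3 fell in PH-failure and 5 in PH-healthy, against 5.79% and 8.15% of all tested genes. Differences between the roles were not tested. HADHA and HADHB encode the alpha and beta subunits of the mitochondrial trifunctional protein, which carries out the last 3 reactions on long chains. HADHB ranged from 295 to 409 RPKM at low PAP with a median of 326. It gave 183, 124 and 136 RPKM in PH-healthy replicates 1 to 3 and 170, 157 and 196 in PH-failure. All 6 hypertensive libraries lay under the lowest low-PAP library. The mean was 1.91-fold lower in PH-failure (log2 fold change -0.93 ± 0.14, limma adjusted p = 0.00171; -1.015 without replicate 3) and 2.26-fold lower in PH-healthy (-1.18 ± 0.14, adjusted p = 0.000317). HADHB kept its call under all 21 other settings of each comparison with low PAP.

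HADHA ranged from 178 to 251 RPKM at low PAP (median 223). In PH-healthy it stood at 146, 125 and 146 RPKM, below every low-PAP library, and fell by 0.63 ± 0.13 on the log2 scale (limma adjusted p = 0.00500). In PH-failure it stood at 173, 149 and 188 RPKM, the last above the lowest low-PAP library, and the change of -0.34 ± 0.13 did not pass the test (adjusted p = 0.0606; -0.42 without replicate 3, adjusted p = 0.0718), though it did after scaling to the median gene, with limma-voom and without low-PAP replicate 1 (adjusted p = 0.0413).

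HADH, the 3-hydroxyacyl-CoA dehydrogenase of shorter chains, ranged from 180 to 248 RPKM at low PAP (median 213). Its levels were 135, 131 and 131 RPKM in PH-healthy and 165, 131 and 92.5 in PH-failure, with no overlap. The falls were -0.67 ± 0.16 in PH-healthy (limma adjusted p = 0.00790) and -0.75 ± 0.16 in PH-failure (adjusted p = 0.00583), the latter -0.53 without replicate 3. ECHS1, the short-chain enoyl-CoA hydratase, ranged from 226 to 337 RPKM at low PAP (median 274), against 156, 145 and 151 in PH-healthy and 213, 138 and 118 in PH-failure. No hypertensive library reached the low-PAP range. ECHS1 fell by 0.90 ± 0.17 in PH-healthy (adjusted p = 0.00359) and by 0.89 ± 0.17 in PH-failure (adjusted p = 0.00481), on the log2 scale. Without PH-failure replicate 3 the latter change was -0.71 (adjusted p = 0.0277).

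The thiolases cleave the chain at the end of each turn. ACAA2, the mitochondrial 3-ketoacyl-CoA thiolase, ranged from 234 to 309 RPKM at low PAP (median 257), and gave 196, 183 and 200 in PH-healthy and 234, 195 and 222 in PH-failure. It fell in PH-healthy by 0.44 ± 0.11 (limma adjusted p = 0.0125), and the adjusted p was 0.0547 without PH-healthy replicate 2. In PH-failure the estimate was -0.28 ± 0.11 (adjusted p = 0.0733), and -0.29 without replicate 3. ACAA2 passed there on scaling to the median gene and on scaling without the mitochondrial genome. The same held with limma-voom and with an adipocyte score as a term. ACAA1, the peroxisomal thiolase, passed no test in the main fit. It averaged 27.3 ± 3.19 RPKM at low PAP, 25.2 ± 0.398 in PH-healthy and 29.5 ± 3.33 in PH-failure. In PH-healthy ACAA1 was called lower on scaling to the median gene alone (limma adjusted p = 0.0459).

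**Figure D2:**
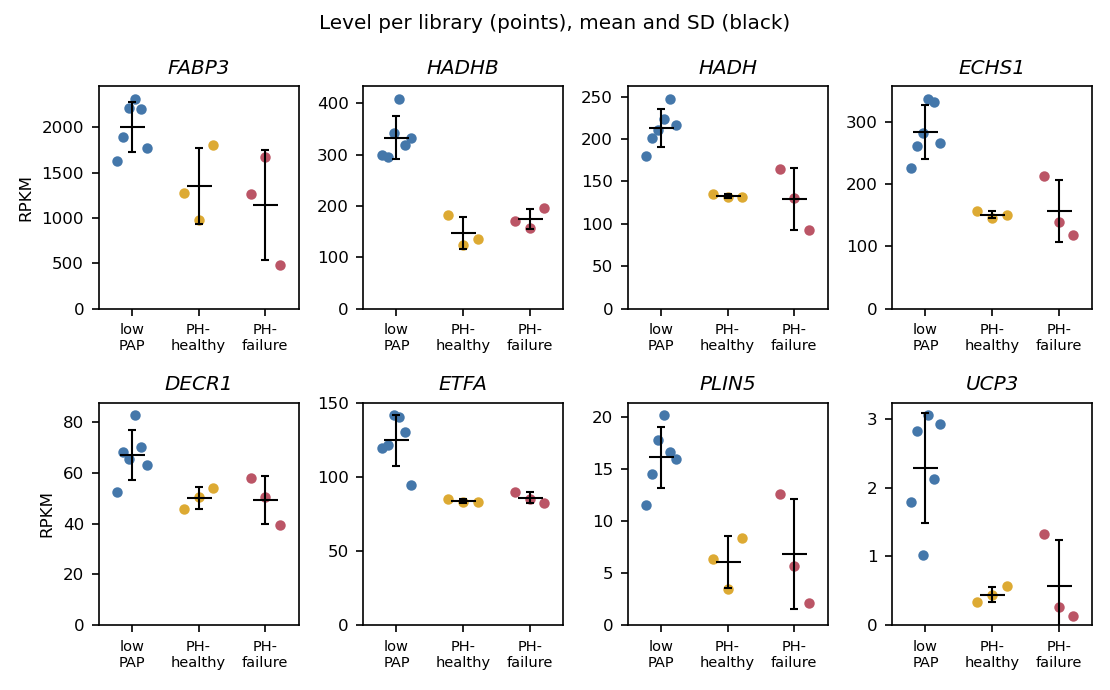
RPKM in each library (points) with the group mean and SD (black) for FABP3, HADHB, HADH, ECHS1, DECR1, ETFA, PLIN5 and UCP3, in 6 low-PAP, 3 PH-healthy and 3 PH-failure libraries, each axis starting at 0. The hypertensive libraries of HADHB, HADH, ECHS1 and ETFA all lie under the lowest low-PAP library, and those of FABP3 overlap with low PAP.

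Unsaturated fatty acids need auxiliary enzymes to enter the spiral. DECR1, the mitochondrial 2,4-dienoyl-CoA reductase, ranged from 52.7 to 82.9 RPKM at low PAP (median 66.9), and gave 45.7, 50.6 and 54.1 in PH-healthy and 58.2, 50.4 and 39.5 in PH-failure. The groups overlapped at their edges. The falls were close to the threshold, at -0.44 ± 0.15 in PH-failure (limma adjusted p = 0.0353) and -0.41 ± 0.15 in PH-healthy (adjusted p = 0.0464), and were lost under 7 and 12 of the 21 other settings. The fit without PH-failure replicate 3 lost the call in PH-failure (-0.29, adjusted p = 0.175) and kept that in PH-healthy (adjusted p = 0.0267). In PH-failure the call was also lost without PH-failure replicate 2 or low-PAP replicate 3, 4 or 5, and in PH-healthy without PH-failure replicate 2, any 1 of low-PAP replicates 2 to 5 or any 1 PH-healthy library (adjusted p of 0.0564 to 0.172). ECI1, an enoyl-CoA isomerase, ranged from 28.1 to 35.5 RPKM at low PAP (median 30.1) and was lower in each PH-healthy library, at 24.7, 24.7 and 21.5. It fell there by 0.38 ± 0.10 (adjusted p = 0.0163; 0.0793 without PH-healthy replicate 3). In PH-failure ECI1 gave 28.6, 24.2 and 25.6 RPKM and did not pass, at -0.24 (adjusted p = 0.0904), and -0.22 without replicate 3. It did pass there after quantile normalization, scaling to the median gene and scaling without the mitochondrial genome. The same held with limma-voom and with an adipocyte score as a term. ECI2, the second isomerase, averaged 77.6 ± 18.4 RPKM at low PAP, 61.1 ± 3.61 in PH-healthy and 55.003 ± 25.3 in PH-failure, and passed neither test; in PH-failure it did on leaving out PH-failure replicate 1 or low-PAP replicate 2 (adjusted p of 0.0467 to 0.0493). The PH-failure fold change of ECI2 was -0.58 with all libraries and -0.12 without replicate 3 (adjusted p = 0.704).

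Electrons from the acyl-CoA dehydrogenases pass to the electron-transferring flavoprotein, of which ETFA and ETFB encode the subunits, and on to ubiquinone through ETFDH. ETFA ranged from 94.5 to 142 RPKM at low PAP (median 126), and stood at 85.1, 83.3 and 82.8 in PH-healthy and 90.0, 85.2 and 82.4 in PH-failure. All 6 values lay below every low-PAP library and spanned only 82.4 to 90.0 RPKM. ETFA fell by 0.55 ± 0.12 in PH-healthy (limma adjusted p = 0.00645) and by 0.52 ± 0.12 in PH-failure (adjusted p = 0.0101; -0.49 and 0.0423 without replicate 3), and kept both calls under all 21 other settings. ETFB ranged from 219 to 303 RPKM at low PAP (median 266) and gave 195, 186 and 199 in PH-healthy, where it fell by 0.42 ± 0.14 (adjusted p = 0.0362), a call lost under 10 of 21 settings, among them those without any 1 PH-healthy library or low-PAP replicate 3, 4 or 5 (adjusted p of 0.0673 to 0.111). In PH-failure ETFB was at 259, 191 and 173 RPKM, with a fold change of -0.34, and -0.22 without replicate 3. It passed there without PH-failure replicate 1 or low-PAP replicate 6 but with no other 1 library left out (0.0155 to 0.0426). ETFB also passed there on scaling to the median gene and on scaling without the mitochondrial genome. The same held with limma-voom and with an adipocyte score as a term. ETFDH ranged from 69.6 to 98.8 RPKM at low PAP (median 84.5), 89.7, 74.0 and 78.3 in PH-healthy and 83.4, 81.5 and 72.1 in PH-failure. Its 95% interval was -0.34 to 0.19 in PH-failure, where the estimate was -0.08 and -0.01 without replicate 3, and -0.31 to 0.21 in PH-healthy on the log2 scale.

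Of the acyl-CoA thioesterases, ACOT13 fell in both groups: it averaged 104 ± 6.88 RPKM at low PAP, 77.2 ± 3.50 in PH-healthy and 75.5 ± 2.61 in PH-failure, with no overlap, and log2 fold changes of -0.42 ± 0.09 (limma adjusted p = 0.00556) and -0.45 ± 0.09 (adjusted p = 0.00494; -0.43 and 0.0219 without PH-failure replicate 3). ACOT2, a thioesterase of the mitochondrial matrix, gave 28.5 ± 3.93, 21.0 ± 2.92 and 23.96 ± 10.98 RPKM in the same order and did not pass. Without PH-failure replicate 1 it did in PH-failure and PH-healthy (limma adjusted p = 0.0110 and 0.0360). In PH-healthy ACOT2 also passed on scaling to the median gene and with limma-voom. Its fold change in PH-failure was -0.32 with all libraries and -0.07 without replicate 3.

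PLIN5 coats lipid droplets and tethers them to mitochondria in oxidative tissue. Its level was 11.5 to 20.2 RPKM at low PAP (median 16.4). It gave 6.36, 3.44 and 8.41 RPKM in PH-healthy, all below low PAP, and 12.6, 5.69 and 2.17 in PH-failure, where replicate 1 was within the low-PAP range. On the log2(RPKM + 1) scale PLIN5 had the largest fold change of the 31 genes in each comparison with low PAP, -1.33 ± 0.36 in PH-healthy (limma adjusted p = 0.0151) and -1.36 ± 0.36 in PH-failure (adjusted p = 0.0152). Without PH-failure replicate 3 the latter was -0.83 and did not pass (adjusted p = 0.0790), and without PH-healthy replicate 2 the former was -1.03 and did not pass (adjusted p = 0.0785). PNPLA2, the triglyceride lipase that PLIN5 binds, averaged 35.4 ± 9.30 RPKM at low PAP, 41.1 ± 5.89 in PH-healthy and 39.4 ± 2.07 in PH-failure, and passed neither test.

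Malonyl-CoA is made at the mitochondrion by ACACB and removed by MLYCD. MLYCD ranged from 10.2 to 18.9 RPKM at low PAP (median 17.4) and gave 16.6, 11.8 and 14.9 in PH-healthy and 15.3, 12.4 and 10.5 in PH-failure. ACACB ranged from 9.02 to 16.2 RPKM (median 11.7), with 12.6, 7.55 and 13.7 in PH-healthy and 9.62, 10.3 and 10.9 in PH-failure. Both overlapped with low PAP in each group and neither passed the test. MLYCD did in PH-failure without low-PAP replicate 1 (-0.45, limma adjusted p = 0.0345). It also passed there after quantile normalization, on scaling to the median gene and with limma-voom. MLYCD gave -0.33 in PH-failure with all libraries and -0.21 without PH-failure replicate 3.

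UCP3, the uncoupling protein of muscle, ranged from 1.01 to 3.06 RPKM at low PAP (median 2.47). It stood at 0.336, 0.431 and 0.564 RPKM in PH-healthy, below every low-PAP library, and at 1.33, 0.261 and 0.133 in PH-failure, where replicate 1 overlapped and the lowest value rests on 5 reads. The mean was 5.15-fold lower in PH-healthy and 3.98-fold lower in PH-failure. On the log2(RPKM + 1) scale UCP3 fell by 1.15 ± 0.25 (limma adjusted p = 0.00572) and by 1.10 ± 0.25 (adjusted p = 0.00830), the latter -0.90 without replicate 3 (adjusted p = 0.0474). UCP2, which is widespread and abundant in immune cells, ranged from 7.25 to 19.2 RPKM at low PAP (median 9.04), and gave 5.55, 5.76 and 5.08 in PH-healthy and 8.24, 5.94 and 13.2 in PH-failure. It fell in PH-healthy by 0.77 ± 0.26 (adjusted p = 0.0382), a call lost under 8 of 21 settings, among them those without any 1 PH-healthy library or low-PAP replicate 4 or 5 (adjusted p of 0.0588 to 0.110). In PH-failure its fold change was -0.19, and -0.47 without replicate 3. The highest value was in replicate 3, where the 8 macrophage markers summed to 170 RPKM against 41.7 to 64.8 at low PAP; their part in the UCP2 level was not tested.

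**Figure D3:**
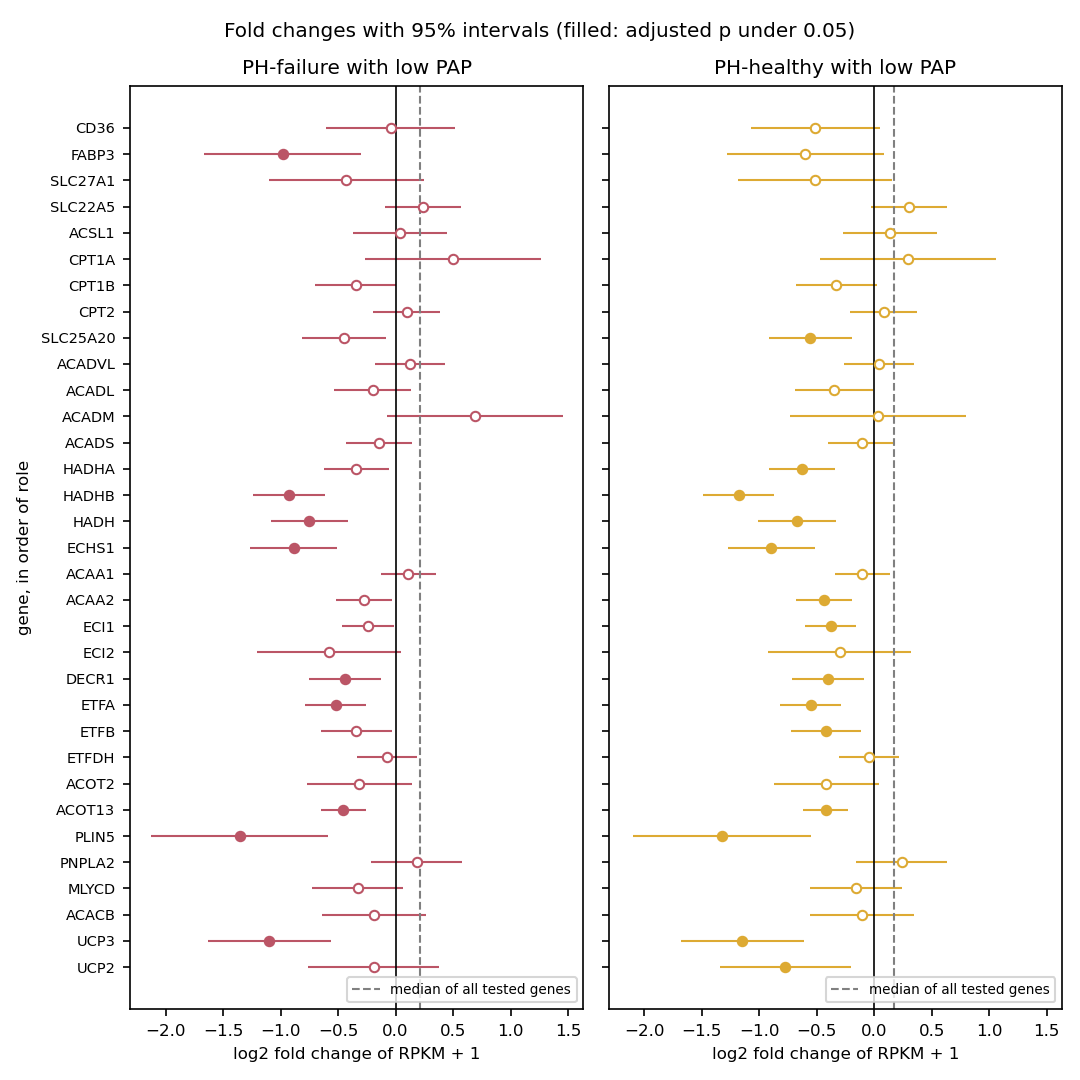
Log2 fold change of RPKM + 1 against low PAP with its 95% interval for 33 fatty acid genes, in PH-failure (left) and PH-healthy (right), filled where the limma adjusted p is under 0.05; the dashed line is the median of all tested genes, at 0.21 and 0.175. All filled points lie left of 0, and most open points lie left of the dashed line.

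Set against each other, PH-failure and PH-healthy gave no call among these genes. None of the 31 was called in the direct comparison by limma, by limma-voom on recovered reads or under the other settings, and 0 passed an unadjusted p of 0.05; over all 11374 genes 1 gene was called (0.00879%). The median log2 difference of the 31 genes was 0.05, PH-failure minus PH-healthy, and 0.155 without PH-failure replicate 3. For HADHB the 95% interval of the difference was -0.11 to 0.61, for ECHS1 -0.43 to 0.45, for ETFA -0.27 to 0.34, for FABP3 -1.18 to 0.41 and for PLIN5 -0.92 to 0.86, and the interval of FABP3 includes a difference as large as its falls. HADHA, ACAA1 and UCP2 were higher in every PH-failure library than in every PH-healthy one, as were 3.61% of all genes, and no gene of the 31 was lower without overlap, against 2.13%. The spread was wider in PH-failure for several genes: ECHS1 had an SD of 49.8 RPKM there and 5.15 in PH-healthy, and HADH 36.1 and 2.30. Against low PAP, 12 of the 31 genes were lower without overlap in PH-healthy (background 9.3%) and 4 in PH-failure (background 3.74%). Those 4, HADHB, HADH, ECHS1 and ETFA, were also the 4 with all 6 hypertensive libraries below all 6 low-PAP libraries (background 2.93%), and none was higher in that way (background 13.8%).

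Ratios of 2 genes within a library do not depend on how the library was scaled. HADHB and HADHA lie next to each other on chromosome 11, at 73215423 to 73246167 and 73246484 to 73288803 in the coordinates of the table, for which no source used here names a genome build. They are 317 bases apart, and their proteins are built into 1 complex. At low PAP HADHB exceeded HADHA in every library, with a log2 ratio of 0.35 to 0.88 and a mean of 0.62 ± 0.22 (SD, n = 6). In PH-healthy the ratio was 0.33, -0.01 and -0.10, and in PH-failure -0.02, 0.07 and 0.06. Neither hypertensive group overlapped with low PAP. The difference had an exact permutation p of 0.0119 in each comparison, the smallest that 6 against 3 libraries allow, and 0.0714 after Benjamini-Hochberg adjustment over the 18 tests of 6 ratios in 3 comparisons, so it did not pass the threshold.

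UCP2 and UCP3 are likewise neighbours, on chromosome 15, 10932 bases apart. Their log2 ratio was 1.54 to 2.84 at low PAP, 4.05, 3.74 and 3.17 in PH-healthy and 2.63, 4.51 and 6.63 in PH-failure. The ratio was higher without overlap in PH-healthy (exact permutation p = 0.0119, adjusted 0.0714), and in PH-failure the exact p was 0.0357 (adjusted 0.129). The ratio of ACADVL to ACADL was 3.46 to 4.08 at low PAP and 4.41, 4.31 and 4.28 in PH-healthy (exact permutation p = 0.0238, adjusted 0.107), and 4.55, 4.02 and 4.19 in PH-failure. ETFDH to ETFA, CPT1A to CPT1B and ACACB to MLYCD overlapped between groups in each comparison with low PAP, with exact p values of 0.0714 to 0.774. Between PH-failure and PH-healthy, where 3 against 3 libraries allow no p under 0.1, the 6 ratios gave 0.5 to 0.9.

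**Figure D4:**
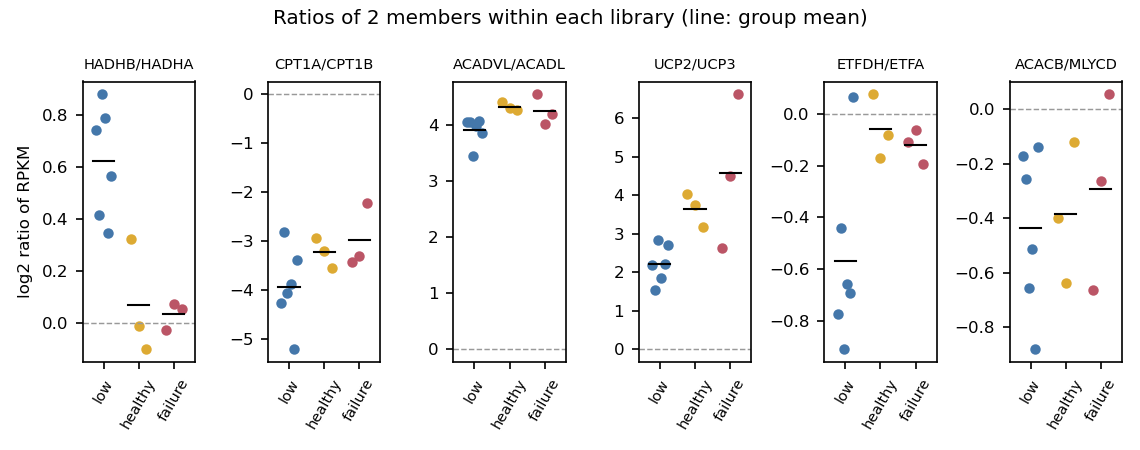
Log2 ratio of RPKM of 2 genes within each library for 6 pairs (points) with group means (lines), in 6 low-PAP, 3 PH-healthy and 3 PH-failure libraries; the dashed line marks equal levels. HADHB/HADHA is 0.35 to 0.88 at low PAP and at or below 0.33 in the hypertensive libraries, and UCP2/UCP3 is higher in PH-healthy than in every low-PAP library.

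The wider pathway was read in 6 further lists of 87 genes, of which 78 were tested. Their direction was mixed and depended on scaling: 19 rose and 3 fell in PH-failure and 21 rose and 7 fell in PH-healthy, but after quantile normalization 10 rose and 10 fell, and 12 rose and 12 fell. Without PH-failure replicate 3, 4 rose and 2 fell in PH-failure, of which 1 rise and 1 fall were among uptake, activation and storage genes, 0 among mitochondrial enzymes and 1 fall among ketone body genes. The background of higher genes, 28% and 26.6%, is close to the share that rose. Lower genes made up 5.79% and 8.15% of that background. After quantile normalization 9.96% and 12.5% of all genes rose, and 12.5% and 14.3% fell. Without PH-failure replicate 3, 11.3% of all genes rose and 2.28% fell in PH-failure. In the list of other uptake, activation and storage genes (18 tested), 4 rose and 1 fell in PH-failure and 4 rose and 2 fell in PH-healthy. DGAT2, which makes triglyceride, fell from 155 ± 18.1 RPKM at low PAP to 67.2 ± 26.3 in PH-failure and 71.1 ± 34.9 in PH-healthy, with log2 fold changes of -1.25 ± 0.28 (limma adjusted p = 0.00764) and -1.22 ± 0.28 (adjusted p = 0.00699). No hypertensive library reached the lowest low-PAP value of 124 RPKM. ACSL4, an acyl-CoA synthetase that prefers arachidonate, rose from 7.51 ± 2.21 RPKM to 14.0 ± 2.14 and 15.3 ± 1.04, by 0.84 ± 0.19 (adjusted p = 0.00800) and 0.97 ± 0.19 (adjusted p = 0.00343), under every scaling tried. Without PH-failure replicate 3 the PH-failure changes were -0.98 for DGAT2 (adjusted p = 0.0436) and 0.73 for ACSL4 (adjusted p = 0.0436).

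Among other mitochondrial fatty acid enzymes (16 tested), 1 rose and 1 fell in PH-failure and 3 rose and 1 fell in PH-healthy. Over all tested genes 28% and 26.6% rose, and 5.79% and 8.15% fell. ECHDC3, a protein of the enoyl-CoA hydratase family, rose from 17.1 ± 4.42 RPKM to 28.4 ± 3.91 in PH-failure (log2 0.73 ± 0.18, limma adjusted p = 0.0132; 0.0501 to 0.0570 on leaving out PH-failure replicate 2 or 3) and 29.6 ± 2.84 in PH-healthy (0.79 ± 0.18, adjusted p = 0.00820). HSD17B10, a mitochondrial hydroxyacyl-CoA dehydrogenase, fell from 118 ± 17.8 RPKM to 79.3 ± 24.5 and 79.7 ± 4.29, by 0.61 ± 0.18 and 0.55 ± 0.18; the call in PH-failure was lost without PH-failure replicate 3 (-0.35, limma adjusted p = 0.132), and the call in PH-healthy after quantile normalization and without any 1 PH-healthy library or low-PAP replicate 3, 4 or 5 (0.0629 to 0.114).

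Peroxisomes shorten very long chains by their own oxidation. Of 16 genes tested, 4 rose and 0 fell in PH-failure, and 4 rose and 1 fell in PH-healthy. Over all tested genes 28% and 26.6% rose, and 5.79% and 8.15% fell. When libraries were scaled to the median gene, 1 rose in each comparison, and 4 and 3 fell. In that scaling 12.6% and 15.1% of all genes rose, and 15.7% and 17.3% fell. Without PH-failure replicate 3, 0 rose and 0 fell in PH-failure, against 11.3% and 2.28% of all genes. SCP2, a sterol carrier and thiolase, fell in PH-healthy from 135 ± 24.7 to 89.8 ± 12.5 RPKM (-0.56 ± 0.19, limma adjusted p = 0.0369), a call lost without any 1 PH-healthy library or low-PAP replicate 2, 3, 4 or 5 (0.0524 to 0.149). For ketone body use (5 tested), 0 rose and 1 fell in PH-failure, and 1 rose and 2 fell in PH-healthy. BDH2, a hydroxybutyrate dehydrogenase, fell from 58.0 ± 9.99 RPKM to 31.0 ± 11.9 in PH-failure (-0.94 ± 0.22, adjusted p = 0.00892; -0.61 and 0.0400 without PH-failure replicate 3) and to 34.4 ± 5.15 in PH-healthy (-0.73 ± 0.22, adjusted p = 0.0219; 0.0634 to 0.0986 on leaving out PH-healthy replicate 1 or 3). OXCT1, which activates ketone bodies for oxidation, rose in PH-healthy from 149 ± 25.1 to 238 ± 16.2 RPKM (0.69 ± 0.21, adjusted p = 0.0257), a call lost on scaling to the median gene and without any 1 PH-healthy library (0.0613 to 0.0834).

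Malonyl-CoA synthesis and its inhibitor, the AMP-activated kinase, had 8 genes tested. Of these, 6 rose in PH-failure, against 28% of all tested genes. In PH-healthy 5 rose and 1 fell, against 26.6% of all tested genes higher and 8.15% lower. Scaled to the median gene, 2 rose and 1 fell, and 3 rose and 1 fell. In that scaling 12.6% and 15.1% of all genes rose, and 15.7% and 17.3% fell. PRKAB1, a beta subunit of the kinase, rose in PH-failure from 7.56 ± 0.480 to 11.5 ± 1.35 RPKM (0.54 ± 0.10, limma adjusted p = 0.00415; 0.0177 without PH-failure replicate 3, where it was the 1 gene of the list called). PRKAG2, the gamma subunit prominent in heart, rose in PH-healthy from 20.8 ± 3.13 to 37.5 ± 5.24 RPKM (0.82 ± 0.15, adjusted p = 0.00243). PRKAG1, another gamma subunit, fell there from 19.9 ± 1.83 to 15.0 ± 1.11 RPKM (-0.39 ± 0.14, adjusted p = 0.0414), a call lost on leaving out any 1 PH-healthy library, PH-failure replicate 2 or low-PAP replicate 1, 2, 4 or 5 (0.0501 to 0.147).

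Regulators of these genes, the PPAR and estrogen-related receptors and their partners (15 tested), gave 4 rises and 0 falls in PH-failure and in PH-healthy. Over all tested genes 28% and 26.6% rose. Scaled to the median gene, 3 rose and 2 fell in each. In that scaling 12.6% and 15.1% of all genes rose, and 15.7% and 17.3% fell. Without PH-failure replicate 3, 2 rose in PH-failure, against 11.3% of all genes. With all hypertensive libraries as 1 group, 6 rose and 1 fell, against 37.3% and 10.4% of all genes. PPARD, a nuclear receptor activated by fatty acids, rose from 2.46 ± 0.623 RPKM at low PAP to 5.75 ± 0.463 in PH-failure (0.98 ± 0.14, limma adjusted p = 0.00133; 0.93 without replicate 3) and 5.90 ± 0.583 in PH-healthy (1.01 ± 0.14, adjusted p = 0.000732). Its 6 hypertensive libraries, at 5.36 to 6.52 RPKM, all exceeded the low-PAP maximum of 3.58 RPKM. KLF15, a transcription factor of cardiac lipid use, fell with all hypertensive libraries as 1 group, from 13.2 ± 2.84 to 9.49 ± 2.54 RPKM (-0.45 ± 0.17, adjusted p = 0.0428), a call lost without low-PAP replicate 2, 3, 4 or 6, PH-healthy replicate 2 or any 1 PH-failure library (0.0516 to 0.0924). In the direct comparison of PH-failure with PH-healthy, 0 of the 78 genes were called by limma, and 4 higher and 5 lower had an unadjusted p under 0.05.

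**Figure D5:**
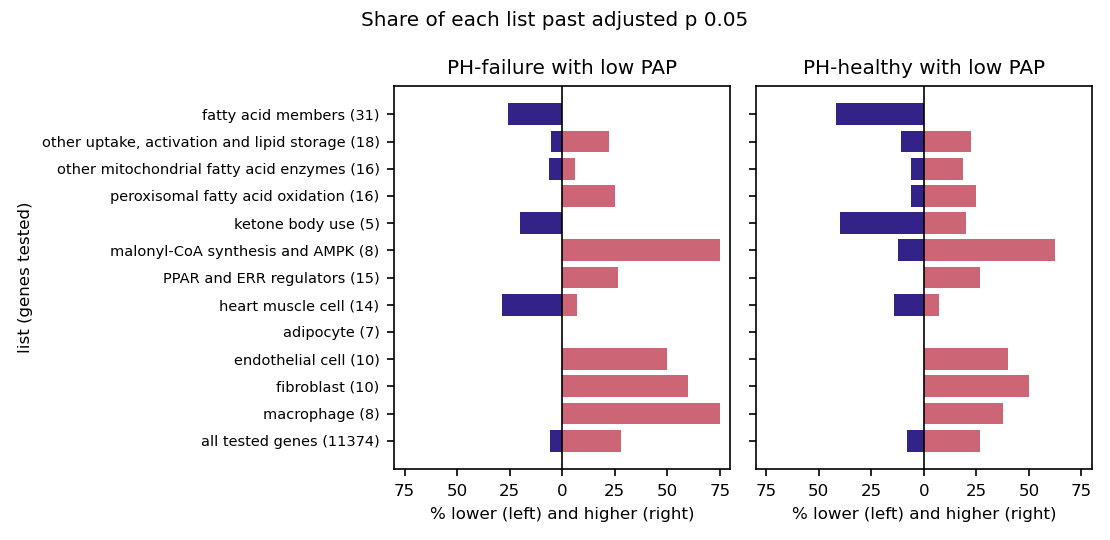
Share of the tested genes of each list that fell (blue, left) or rose (red, right) at a limma adjusted p under 0.05, in PH-failure (left) and PH-healthy (right) against low PAP, with the genes tested in brackets and all tested genes in the lowest bars. The fatty acid list has 25.8% and 41.9% lower and none higher, while the marker lists of endothelium, fibroblasts and macrophages have called genes on the higher side alone.

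Some fibroblast, endothelial and macrophage markers rose in the hypertensive groups, and of 7 adipocyte markers tested 0 were called. The 10 fibroblast markers summed to 1070 ± 102 RPKM at low PAP and 1587 ± 348 in PH-failure, and 6 of them rose; the 10 endothelial markers to 147 ± 34.6 and 215 ± 21.3, with 5 rises; and the 8 macrophage markers to 52.2 ± 9.14 and 110 ± 56.2, with 6 rises. In PH-failure replicates 1 to 3 the macrophage sum was 102, 58.1 and 170 RPKM, and the fibroblast sum 1939, 1242 and 1579. In PH-healthy the sums were 1300 ± 346, 182 ± 11.6 and 72.4 ± 13.5 RPKM, with 5, 4 and 3 rises. The fibroblast sum of PH-healthy replicate 3, 908 RPKM, was under the lowest low-PAP library at 923. With all hypertensive libraries as 1 group, 7 endothelial markers rose and 1 fell. Of all tested genes, 28% rose and 5.79% fell in PH-failure, and 26.6% rose and 8.15% fell in PH-healthy. None of the sums passed the threshold after adjustment over 18 exact permutation tests (lowest adjusted p = 0.0714). Of the 14 heart muscle markers, 4 fell (28.6%) and 1 rose in PH-failure, and 2 fell (14.3%) and 1 rose in PH-healthy. The share that fell in PH-failure was near the 25.8% of the fatty acid list. These markers summed to 97220 ± 9669 RPKM at low PAP, 88600 ± 4590 in PH-healthy and 80930 ± 20390 in PH-failure. ADIG was at 0 in 1 library, and no other marker found was at 0 in any. The part of these cell types in the fall of the fatty acid genes was not tested. A fit with an adipocyte score as a term left 11 of 31 genes lower in PH-failure and 6 in PH-healthy. In that fit 6.7% and 2.22% of all tested genes were lower, against 5.79% and 8.15% without the term, so calls over all genes moved as well.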

How the data were processed

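Total RNA of the right ventricle was harvested with Trizol, and Illumina libraries followed standard protocols, per the labels. The authors deposited RPKM for 24616 genes and 12 libraries, per the file headers; no source used here names the aligner, the counting, its use of strand or the genome build. The authors' deposited means, fold ratio, p-value and false discovery rate columns were not used. The reads behind the RPKM were recovered, since a gene's RPKM moves in steps of 1 read: 100% of the 11374 tested genes came out whole within 0.05 reads, with a median of 370 reads and 14739237 to 31090198 mapped reads per library. Genes that reached 1 RPKM in 3 or more libraries were fitted on log2(RPKM + 1) with limma 3.58.1 (trend, robust) in R 4.3.3 and checked on simulated data. Ratios and marker sums were compared by exact 2-sided permutation tests, adjusted over 18 tests each. The 35 genes, the other lists and the markers were chosen with earlier results of these data known. Each gene called in a comparison, and both genes of each ratio, are given library by library, other genes of the list by mean and SD; of the 6 further lists, the called gene of smallest adjusted p per direction, list and comparison is named, except 1 that is not reported here. The 21 alternatives were a pseudocount of 0.1, no filter, 3 other scalings, limma-voom on the recovered reads with TMM factors computed here, library series, adipocyte score or replicate number as a term, and leaving out each library. ECI2, ACOT13, PLIN1 and PLIN3 were matched through RefSeq synonyms. No sequences are printed.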

Additional observations from a re-analysis of the deposited data

Results flagged for a closer look

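In 5 of 39 groups of 6 low-PAP libraries, 1 library lay far from the other 5, measured as its gap to the nearest of them over the whole range (Dixon's test at its 95% critical value); chance gives about 1 in 20. The carnitine carrier SLC25A20 was lowest in low-PAP replicate 1 at 27.1 RPKM, against 35.6 to 38.2 in the others, and MLYCD, which removes malonyl-CoA, was lowest in the same library at 10.2 RPKM, against 15.9 to 18.9. The peroxisomal thiolase ACAA1 was highest in low-PAP replicate 5 at 33.7 RPKM, against 24.8 to 26.7. UCP2 was highest in low-PAP replicate 6 at 19.2 RPKM, against 7.25 to 10.97. The log2 ratio of ACADVL to ACADL was lowest in low-PAP replicate 3 at 3.46, against 3.87 to 4.08.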

How the results depend on the processing

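The 8 fatty acid genes lower in PH-failure became 17 on scaling to the median gene, 13 on scaling without the mitochondrial genome, 15 with limma-voom and 5 to 12 on leaving out 1 library. The count of higher genes, 0, was 0 to 1 on leaving out 1 library. The share of all genes lower in PH-failure, 5.79%, became 15.7%, 9.07%, 13.8% and 2.28% to 8.24% in the same order. The 13 lower in PH-healthy became 6 in a fit that held the adipocyte score and 7 to 15 on leaving out 1 library, with 0 to 1 higher. The share of all genes lower in PH-healthy, 8.15%, became 2.22% and 3.37% to 9.68% in that order. The 13 lower in all hypertensive libraries became 21 on scaling to the median gene and 21 with limma-voom, with 0 to 1 higher on leaving out 1 library. In those 2 scalings 23.4% and 20.9% of all genes were lower, against 10.4% in the main fit. Replicate numbers only name animals within a group: deviations of same-numbered libraries correlated at -0.257 to 0.193. With the replicate block 2, 3 and 5 genes were lower in the 3 comparisons in that order, against 1.38%, 2.81% and 4.48% of all genes. Under that block 1 was higher in all hypertensive libraries, and over all genes 2517 rose and 510 fell there. Of the values of single genes, 2596 kept their side of the threshold, 96 gained and 80 lost a call, and none called turned direction. All 162 values of the ratios stayed short of a call, as in the main tests. With a smallest exact permutation p of 0.0119 and adjustment over 18 tests they had little room to pass, so this does not measure their stability. The cause of these changes was not tested. With 3 libraries a group, and 3 against 3 allowing no exact p under 0.1, small differences between the hypertensive groups were not detectable.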
